A study of Rattus norvegicus with 15 samples.

Results

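The dystrophin-glycoprotein complex was described through 8 genes, which were chosen by symbol and were all found among the 11574 genes of the count table. They were Dmd (dystrophin), Utrn (utrophin), Dag1 (dystroglycan), Sgca, Sgcb, Sgcd and Sgce (the alpha, beta, delta and epsilon sarcoglycans) and Sspn (sarcospan). RNA-Seq was performed on 15 cultures of H9c2, a wild-type myoblast line derived from embryonic rat heart, with 3 cultures in each of 5 groups. T0 cells were harvested after attachment, before the 1 µM all-trans retinoic acid (RA) was first added. T7-RA and T14-RA cells were kept in low-serum medium without RA until day 7 or 14, and T7+RA and T14+RA cells received RA daily over the same periods. The comparison of T0 with the later groups therefore joins culture time and the change to low serum, which cannot be told apart. RA was dissolved in DMSO, and whether the -RA cultures received DMSO is not given in the sources used here. The cell line tag names H9c2 only for the T0 libraries and carries a different running number for every other library, whereas all titles name H9c2.

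Dystrophin is a long rod-like protein that anchors cortical actin to the muscle cell membrane. It binds dystroglycan, a membrane receptor whose sugar chains hold laminin and other matrix proteins outside the cell. The sarcoglycans and sarcospan form a subcomplex in the membrane that stabilizes this link, and utrophin is a close relative of dystrophin that is widespread in immature and non-muscle cells. Loss of dystrophin or of the alpha, beta or delta sarcoglycan causes muscular dystrophy, often with cardiomyopathy.

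Counts per library ranged from 508397 to 1030820, with a median of 666344. Of 14 muscle marker genes, 11 were in the table, and their summed level ranged from 392 to 452 CPM (counts per 1000000 counts, scaled by the TMM method) at T0, from 3272 to 3802 on day 7 without RA and from 11907 to 12587 on day 14 without RA. With RA the range was 1876 to 2180 at day 7 and 5473 to 6292 at day 14. Of these 11 genes the T14 term called 8 higher and 0 lower, and the RA term 0 higher and 5 lower. Over all genes these terms called 17.3% and 6.39%. On day 14 without RA the sum was mostly Myh3 (5056 CPM), Acta1 (3258) and Tnnt3 (1932). Myod1 averaged 115 CPM at T0, 87.9 and 80.2 on days 7 and 14 without RA, and 149 and 65 with RA. Mef2c averaged 82.7, then 59.4 and 135 without RA and 49.8 and 70 with RA. Of 10 cardiac muscle markers, only Gata4 was among the genes analysed, and of 5 endothelial markers only Tek, at 6.29 CPM or less in every library. The summed level of 5 smooth muscle markers was 15547 to 17043 CPM at T0 and at most 5460 CPM in any later library. Of 7 fibroblast markers 4 were in the table and summed to between 18448 and 37564 CPM over all libraries, mostly Col1a1. Col1a1 averaged 29893 CPM in T0 cells, 22729 and 20184 CPM on days 7 and 14 without RA and 23553 and 21092 CPM with RA, and Thy1 averaged 290 CPM, then 240 and 270 without RA, and 180 CPM on day 14 with RA. Dcn averaged 0 CPM in T0 cells, 7.41 and 50.5 CPM on days 7 and 14 without RA and 8.88 and 120 CPM with RA, and Lum averaged 0, then 5.38 and 28.5 without RA and 2.29 and 6.24 with RA. Of these 4 genes the T14 term called 2 higher and 1 lower. Of 6 Schwann and neural cell markers, 3 were in the table and summed to between 9.65 and 60.8 CPM. In such bulk libraries, more cells of a type and more RNA per cell cannot be told apart.

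The sequences before the transcription starts of Dmd, Sspn and Utrn are shown because these were the 3 members called for the change by day 14. The RefSeq promoter table (build GRCr8) held an entry for 7 of the 8 members, and none for Dag1. It listed 3 starts for Dmd, of which the most upstream is printed. Each line gives the 250 bases before the start, with E-boxes (CANNTG, the core motif of myogenic bHLH factors, searched on both strands) and CArG boxes (the serum response factor motif) in capitals.
Dmd, chrX:51205836-51206085, plus strand: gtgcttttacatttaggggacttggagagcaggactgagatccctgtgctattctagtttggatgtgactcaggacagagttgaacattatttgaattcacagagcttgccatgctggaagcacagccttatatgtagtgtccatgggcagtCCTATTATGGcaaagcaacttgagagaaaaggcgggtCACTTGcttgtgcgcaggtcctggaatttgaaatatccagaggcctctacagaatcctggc
Sspn, chr4:180627632-180627881, plus strand: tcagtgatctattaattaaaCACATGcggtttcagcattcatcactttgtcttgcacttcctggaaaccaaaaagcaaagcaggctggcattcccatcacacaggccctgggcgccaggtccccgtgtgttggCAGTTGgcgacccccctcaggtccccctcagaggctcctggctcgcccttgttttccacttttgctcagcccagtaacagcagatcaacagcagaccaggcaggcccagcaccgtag
Utrn, chr1:9044488-9044737, minus strand: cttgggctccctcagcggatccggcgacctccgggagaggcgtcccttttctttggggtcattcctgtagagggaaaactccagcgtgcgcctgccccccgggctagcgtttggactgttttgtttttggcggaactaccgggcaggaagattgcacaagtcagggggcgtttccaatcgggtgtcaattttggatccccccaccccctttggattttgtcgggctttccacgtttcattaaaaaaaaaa
The Dmd window held 1 E-box beginning 61 bases before the start and 1 CArG box beginning 98 bases before it, and the windows of the other 2 Dmd starts held neither motif. The Sspn window held 2 E-boxes, beginning 230 and 117 bases before the start. The Utrn window held neither motif, and neither did those of Sgcb and Sgce. The Sgca window held 2 E-boxes, of which 1 read CAGCTG, and the Sgcd window held 1. Over all 33469 promoter windows of this length, 65.5% held CANNTG, 12% held CAGCTG and 1.5% held a CArG box, so an E-box alone is common. AGGTCA, a core motif of retinoid receptors, and the MEF2 motif were in none of the members' windows, and in 4707 and 175 of all windows. A match is a description of letters and not evidence of binding.

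Dag1 was the most abundant member and Sspn the least. Divided by the gene length deposited with the counts, the mean level over the 15 libraries was 148 CPM per kb for Dag1, 66.2 for Sgca, 27.7 for Sgce, 24.7 for Sgcb, 19.6 for Utrn, 8.68 for Sgcd, 4.1 for Dmd and 1.31 for Sspn. At T0, Utrn (27.5 ± 2.56 CPM per kb, SD, n = 3), Sgce (26.8 ± 4.98) and Sgcb (25.7 ± 5.31) did not differ beyond their spread. In T14-RA, Sgce (24 ± 4.35 CPM per kb) and Sgcb (22.5 ± 4.56) were again within their spread, while Dmd (5.98 ± 1.06), Sgcd (5.27 ± 0.15) and Sspn (4.74 ± 1.7) lay together at the bottom. The Dmd count adds up all transcripts of the gene, long and short, so a level per full length understates any short transcripts. Total counts over the 15 libraries ranged from 47 for Sspn and 141 for Sgcd to 7872 for Dag1, and the precision follows this order.

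**Figure D1:**
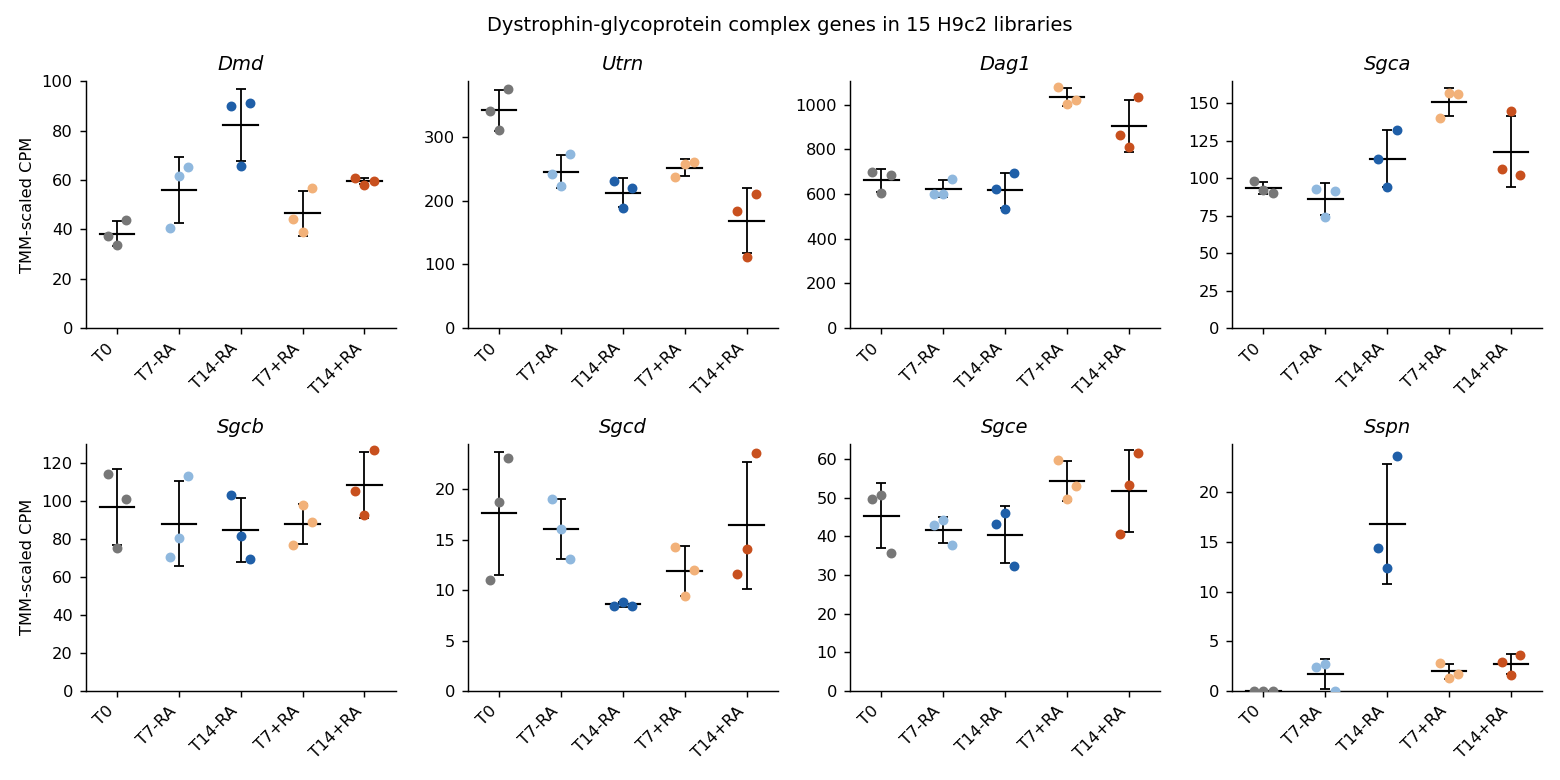
Each panel plots the TMM-scaled CPM of 1 gene in the 15 libraries, with points for cultures and a line and bar for the mean and SD (n = 3). Dmd and Sspn were highest in T14-RA and Utrn in T0, while Dag1 was higher in every +RA culture than in every culture of the other groups.

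By day 14 dystrophin rose and utrophin fell, and sarcospan was counted mostly in the T14-RA cultures. The counts were fitted with T7, T14 and RA terms, where the first pair of terms gives the change from T0 at each day at equal RA, and the RA term gives the mean RA change over both days. A gene was called at an adjusted p under 0.001 in edgeR's quasi-likelihood test. By this rule the T14 term called 17.3% of all genes (8.47% higher and 8.85% lower), against 2 members higher and 1 lower. Of these calls that of Sspn cannot count as support, because without the T14-RA libraries its counts sum to 14, under the smallest sum in the table (21), so that it entered the table only through the group where it was high. The other 7 members did not depend on their highest group in this way. The T7 term called 0 members and 8.73% of all genes (4.29% higher and 4.44% lower). In edgeR 3 members (Dmd, Utrn and Sspn) had an unadjusted p under 0.05 for T7, of which Sspn again cannot count. The share of all genes at that unadjusted level was not counted, so these members have no background to be read against. DESeq2 and limma-voom also called 0 for T7. The median T14 change of the 8 members was −0.13 on the log2 scale, beside 0.05 for all genes.

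Dmd, which encodes the actin-binding scaffold of the complex (Xq21, ENSRNOG00000046366), had 37.2, 33.8 and 44 CPM in the T0 cultures, 40.6, 61.8 and 65.4 on day 7 and 90.1, 65.5 and 91.4 on day 14 without RA. With RA it had 44.2, 38.9 and 56.6 CPM at day 7 and 60.8, 58.1 and 59.8 at day 14. All T14-RA cultures lay above all T7-RA and T0 cultures (of all genes, 13.2% were higher in this way in T14-RA than in T7-RA and 21.5% than in T0). The separation from T7-RA was only 65.5 against 65.4 CPM and depends on the scaling. All T14+RA cultures lay above all T7+RA cultures, as was the case for 14.4% of all genes. The T14 change was 1.08 on the log2 scale (SE 0.217, edgeR adjusted p = 5.61e-05), a 2.11-fold rise, and the T7 change was 0.59 (SE 0.225, edgeR adjusted p = 0.0494), which was not called.

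Utrn, the relative of Dmd (1p13, ENSRNOG00000011058), moved the other way. It had 341, 311 and 375 CPM at T0, 242, 223 and 273 on day 7 and 231, 188 and 220 on day 14 without RA. With RA it had 237, 258 and 261 CPM at day 7 and 184, 112 and 210 at day 14. Every later culture lay below every T0 culture, and between T0 and T14-RA 19.1% of all genes were lower without overlap. The summed smooth muscle markers were also highest at T0, and their part was not tested. Utrn fell by 0.77 on the log2 scale at T14 (SE 0.134, edgeR adjusted p = 5.27e-06), to 0.586 of T0, and the T7 change was −0.39 (SE 0.132, edgeR adjusted p = 0.0251).

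Dmd and Utrn were set against each other as a ratio of levels per length, which is a description of the same counts. The Utrn to Dmd ratio averaged 9.91 ± 0.424 (SD, n = 3) in T0 cells. Without RA it was 5.07 ± 1.36 on day 7 and 2.88 ± 0.257 on day 14, and with RA it was 6.11 ± 1.13 and 3.12 ± 0.904. The lowest T0 culture (9.42) lay above the highest of all later cultures (7.32), and each day 14 group lay below the day 7 group of the same treatment. The ratio of T14+RA lay within the spread of T14-RA and overlapped it.

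**Figure D2:**
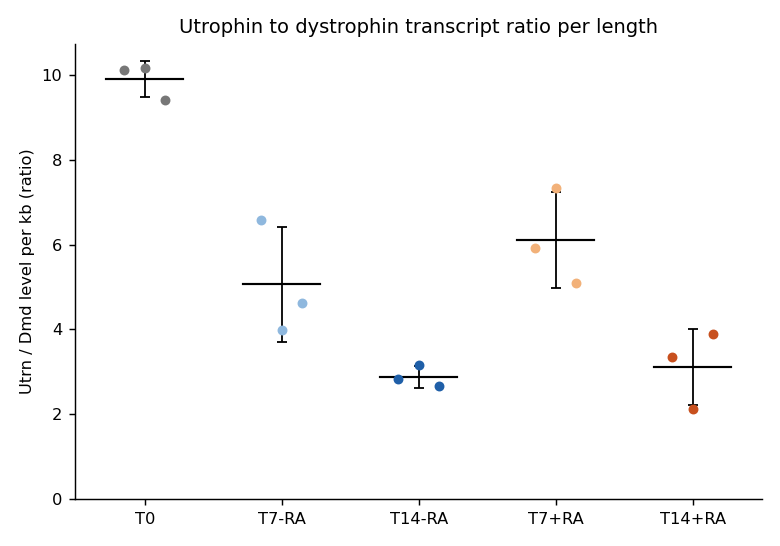
The vertical axis is the Utrn level per kb divided by the Dmd level per kb, with points for cultures and a line and bar for the mean and SD (n = 3). The ratio was 9.91 at T0 and near 3 at day 14 with and without RA (2.88 and 3.12).

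Sspn, a small membrane protein of the sarcoglycan subcomplex (4q44, ENSRNOG00000001807), was counted mostly in T14-RA. It had 0 counts in all 3 T0 libraries, where a floor of 3 counts per library corresponds to a mean of 5.35 CPM. Its counts without RA were 2, 2 and 0 on day 7 and 12, 7 and 14 on day 14, and with RA they were 2, 1 and 1 on day 7 and 3, 1 and 2 on day 14. These are 14.4, 12.4 and 23.7 CPM in T14-RA and at most 3.63 CPM in any other library. With T0 taken at this floor, the mean T14-RA level of 16.8 CPM was at least 3.15-fold higher than T0. Between T14-RA with 33 counts and T7-RA with 4, the ratio was 9.43, where every T7-RA library was under the floor of 3 counts. These ratios are descriptions, since the gene is in the table only through its T14-RA counts. The fitted T14 change of 6.35 on the log2 scale depends on the prior count because T0 held no counts.

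The summed muscle markers rose over the same groups as Dmd and Sspn and were lower with RA at both days. Single muscle markers did not all follow this sum, as Myod1 without RA averaged highest at T0. The part of the muscle markers in these changes was not tested. Among the cultures without RA, the fibroblast markers Dcn and Lum were also highest on day 14, where RA cultures had more Dcn and less Lum, while Col1a1 and Thy1 were highest at T0, and the part of these markers was not tested either. The T14 calls of Dmd and Utrn held in all 15 fits that left out 1 library and under DESeq2 and limma-voom, but neither passed with limma on quantile-normalized log2(count + 1), where their adjusted p was 0.00151 and 0.0114. There the change was 0.99 for Dmd and −0.72 for Utrn, close to the values above, and the fitted change of Sspn was 2.14.

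**Figure D3:**
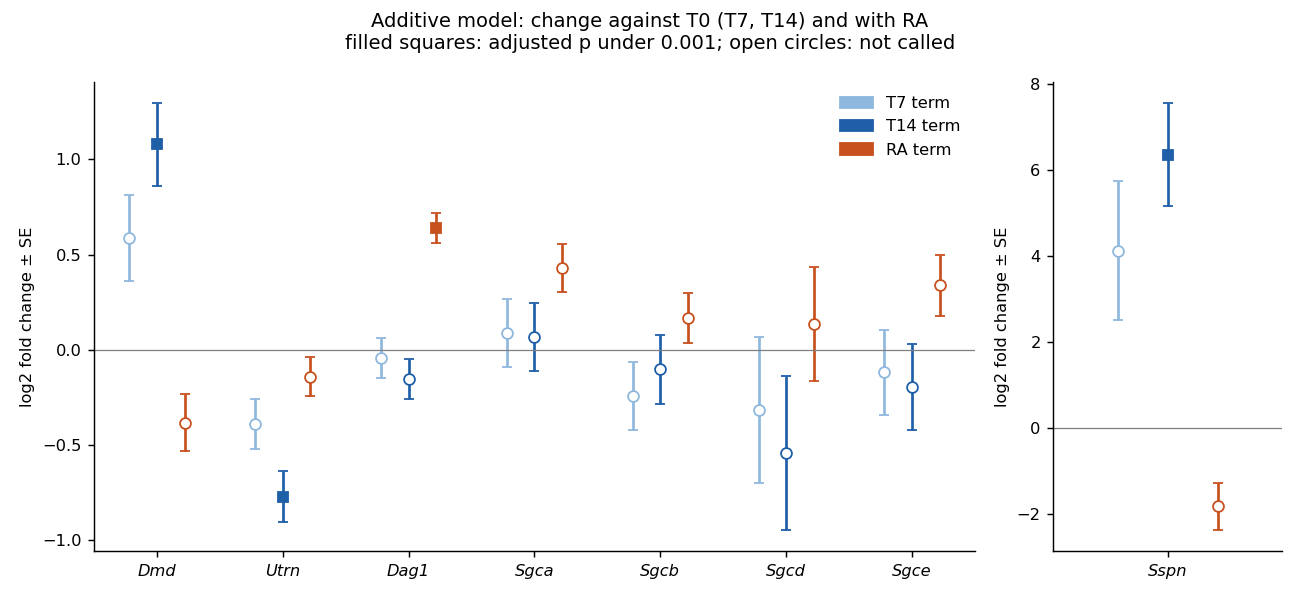
Points are log2 fold changes of the T7, T14 and RA terms with SE bars for each gene, and Sspn has an axis of its own. Filled squares passed an adjusted p of 0.001, which were the T14 terms of Dmd and Utrn and the RA term of Dag1, and the T14 term of Sspn, which is no support because T14-RA alone brought that gene into the table.

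RA was associated with a higher level of dystroglycan at both days and of alpha-sarcoglycan at day 7. The RA term called 1 of the 8 members, Dag1, where it called 6.39% of all genes (3.33% higher and 3.07% lower). In a model with a mean for each group, T7+RA against T7-RA called 2 members, both higher, and 3.17% of all genes (1.87% higher). T14+RA against T14-RA called 1 member and 4.81% of all genes (2.46% higher and 2.35% lower). The median RA change of the members was 0.15 on the log2 scale over both days, beside −0.01 for all genes. The cultures with and without RA did not overlap for 3 members at day 7, all higher, and for 4 at day 14, 2 in each direction. Of the 2 that were lower at day 14 (Dmd and Sspn), Sspn cannot count, because T14-RA alone brought it into the table. Of all genes 24.4% did not overlap at day 7 (11.8% higher and 12.6% lower) and 27.2% at day 14 (13.4% higher and 13.9% lower).

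Dag1, whose product is cleaved into the laminin-binding alpha and the membrane-spanning beta subunit (8q32, ENSRNOG00000019400), had 698, 604 and 683 CPM at T0, 602, 601 and 668 on day 7 and 622, 533 and 693 on day 14 without RA. With RA it had 1078, 1001 and 1020 CPM at day 7 and 863, 811 and 1033 at day 14. Without RA the groups overlapped from T0 to day 14, and every +RA culture lay above every -RA culture. The RA term was 0.64 on the log2 scale (SE 0.0779, edgeR adjusted p = 2.01e-09), a 1.56-fold rise. It rose by 0.73 at day 7 (SE 0.0997, edgeR adjusted p = 5.23e-08) and by 0.55 at day 14 (SE 0.101, edgeR adjusted p = 3.7e-05). The T14 term was −0.15 (95% interval −0.36 to 0.05, edgeR adjusted p = 0.278).

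Sgca, the sarcoglycan restricted to striated muscle (10q26, ENSRNOG00000003998), had 97.9, 91.9 and 90.1 CPM at T0, 93, 73.9 and 91.5 on day 7 and 113, 93.9 and 132 on day 14 without RA. With RA it had 140, 157 and 156 CPM at day 7 and 106, 145 and 102 at day 14. The day 7 groups were apart and the day 14 groups overlapped. The RA change was 0.80 on the log2 scale at day 7 (SE 0.157, edgeR adjusted p = 0.000124), a 1.75-fold rise, and 0.04 at day 14 (SE 0.158, edgeR adjusted p = 0.931). The difference between the days was −0.76 (95% interval −1.2 to −0.32) and was not called at an adjusted p of 0.05 (edgeR adjusted p = 0.108, unadjusted p = 0.00116). This difference test called 0 of the 8 members and 0.743% of all genes (0.285% higher and 0.458% lower). Without T14+RA replicate 2 the difference of Sgca was −0.93 and passed (edgeR adjusted p = 0.0299). An unadjusted p under 0.05 was reached by 3 members (Sgca, Sgcd and Sspn, of which Sspn cannot count because it is in the table only through T14-RA), and DESeq2 and limma-voom also called 0.

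**Figure D4:**
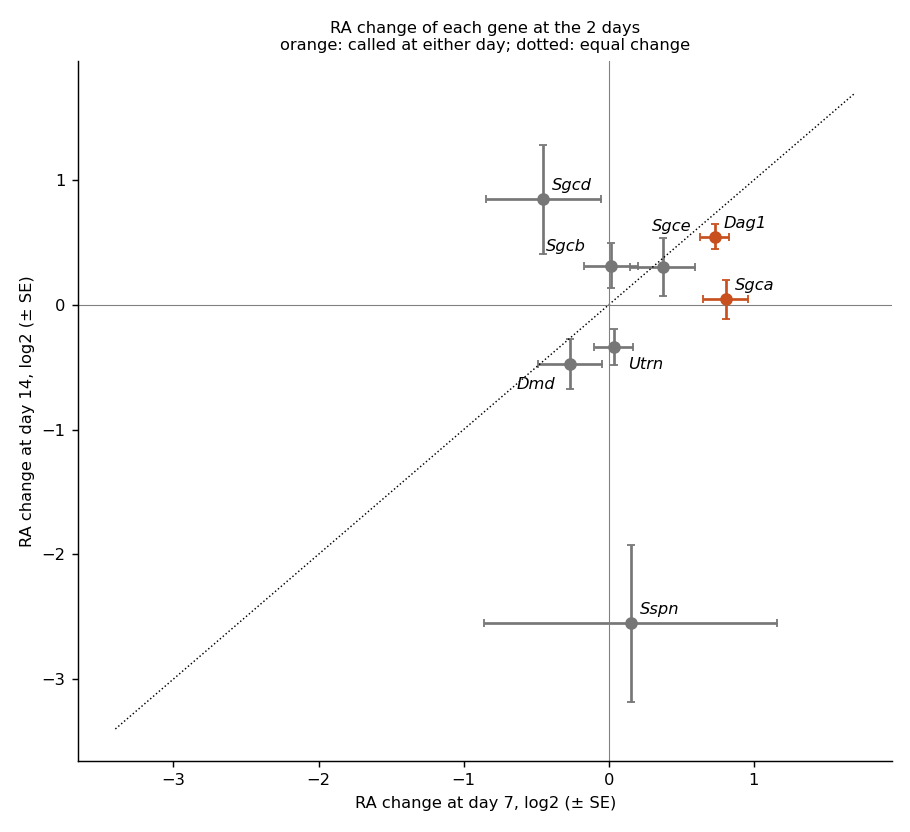
The horizontal axis is the log2 RA change at day 7 and the vertical axis that at day 14, with SE bars. Dag1 (0.73 and 0.55) and Sgca (0.80 and 0.04) were called at day 7, and Sspn lay far below the dotted line of equal change, with wide bars from few counts.

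Sspn and Dmd had lower values with RA at day 14. For Sspn the T14+RA libraries held 6 counts against 33 in T14-RA, a ratio of T14-RA to T14+RA of 6.16. No T14+RA library was above the floor of 3 counts. The fitted RA change of Sspn at day 14 was −2.55 on the log2 scale. As the T14-RA counts alone brought Sspn into the table, these values are given without a test. For Dmd the change was −0.48 (SE 0.198, edgeR adjusted p = 0.123), which was not called. For Dmd every T14+RA culture lay below every T14-RA culture, as was the case for 13.9% of all genes. The same separation in Sspn cannot count, because of how that gene entered the table. The summed muscle markers were also lower in T14+RA than in T14-RA, and their part was not tested. For Utrn the RA change at day 14 was −0.34 (SE 0.143, edgeR adjusted p = 0.128), and its lowest library, T14+RA replicate 2, held 71 counts. Without that library the change was −0.13 (edgeR adjusted p = 0.72).

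The calls of RA at 1 day rested on 3 cultures a group. Without T7-RA replicate 2, T7+RA replicate 2 or T7+RA replicate 3 the adjusted p of Sgca at day 7 was 0.00493, 0.00241 and 0.00155, and without T14-RA replicate 2 or T14+RA replicate 3 that of Dag1 at day 14 was 0.00331 and 0.00173. The changes themselves stayed between 0.71 and 0.78 for Sgca and were 0.46 and 0.45 for Dag1. With limma on quantile-normalized log2(count + 1) no RA call passed, with a change of 0.55 and an adjusted p of 0.00312 for the RA term of Dag1 and a change of 0.78 and an adjusted p of 0.019 for Sgca at day 7.

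Sgcb, Sgcd and Sgce passed no test of time or RA. Sgce, the widely expressed relative of Sgca (4q13), had mean levels from 40.5 ± 7.34 CPM in T14-RA to 54.2 ± 5.19 CPM in T7+RA (SD, n = 3). Its values in T7+RA (59.9, 49.7 and 53.1 CPM) all lay above those in T7-RA (42.9, 44.3 and 37.8), with an RA term of 0.34 on the log2 scale (95% interval 0.03 to 0.65, edgeR adjusted p = 0.169). Sgcb, the core subunit of the sarcoglycan subcomplex (14p11), had group means from 84.7 ± 17.2 CPM in T14-RA to 108 ± 17.3 in T14+RA, and its groups overlapped in every comparison made. Its T14 term was −0.10 (95% interval −0.46 to 0.25) and its RA term 0.17 (95% interval −0.09 to 0.43). Sgcd, which pairs with Sgcb in that core (10q21), had between 5 and 16 counts in a library. Its levels were 8.41, 8.86 and 8.47 CPM in T14-RA, below all T0 (11, 18.8 and 23.1) and all T14+RA cultures (11.6 to 23.6). The RA change of Sgcd at day 14 was 0.84 on the log2 scale (95% interval −0.01 to 1.7, edgeR adjusted p = 0.251), and without T14+RA replicate 3 it was 0.55 (edgeR adjusted p = 0.607).

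Other genes of the pathway were counted in 3 lists that do not contain the members. Of 19 further subunits and cytoplasmic partners 14 were analysed, and the T14 term called 5 of them, all higher, while the RA term called 2, both lower. Over all genes the T14 term called 17.3% (8.47% higher) and the RA term 6.39% (3.07% lower). Their median T14 change was 0.65 on the log2 scale and their median RA change −0.39, beside 0.05 and −0.01 for all genes. Sntb1, a syntrophin that docks signalling proteins on dystrophin, rose with a T14 change of 1.63 (SE 0.302, edgeR adjusted p = 2.12e-05). Dtna, the dystrophin-related alpha-dystrobrevin, held 0 counts in T0 cells, 5 and 21 on days 7 and 14 without RA, and 0 and 2 with RA. Both its T14 and its RA term are among the calls counted here, but without T14-RA only 7 of its 28 counts remain, under the smallest sum of 21, so that these calls cannot count as support. Ank3, an ankyrin that binds dystrophin at the membrane, had an RA term of −0.99 over both days (SE 0.144, edgeR adjusted p = 2.21e-07). At day 14 alone its RA change was −1.21 (SE 0.205, edgeR adjusted p = 6.81e-06), from 91.4 ± 11.8 to 39.7 ± 3.68 CPM. The summed muscle markers were also higher at day 14 than at T0 and lower with RA, and their part in these values was not tested.

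Of 15 extracellular ligands and partners of dystroglycan 9 were analysed, and RA called 4, 2 in each direction, where it called 6.39% of all genes (3.33% higher and 3.07% lower). Lama4, the laminin alpha 4 chain, had an RA change of −1.0 (SE 0.136, edgeR adjusted p = 3.69e-08), and Bgn, the proteoglycan biglycan, had a change of −0.62 (SE 0.0695, edgeR adjusted p = 1.59e-10). Lama5, the laminin alpha 5 chain, rose by 0.48 (SE 0.0938, edgeR adjusted p = 0.000319). With time, the T14 term called Lamc1, the laminin gamma 1 chain, lower by −0.71 (SE 0.0962, edgeR adjusted p = 1.87e-08) and Lamb2, the laminin beta 2 chain, higher by 0.48 (SE 0.103, edgeR adjusted p = 0.000157). Lamc1 was also the only ligand called by the T7 term, at −0.68. Over all genes the T7 term called 8.73% and the T14 term 17.3%, so that 1 and 2 of 9 ligands are near the background. Lama1 and Lama2, the chains of the classical muscle laminins, are not among the genes analysed here. Hspg2 (perlecan) was matched through an older symbol in RefSeq.

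Of 18 genes for the glycosylation of dystroglycan 16 were analysed, and the RA term called 0 of them and had a median of 0.08. The T14 term called 2, both higher. Over all genes these terms called 6.39% and 17.3%, so that neither count stands apart from the background, and the 2 calls of the T7 term stand beside 8.73%. Dpm1, a subunit of dolichol-phosphate mannose synthase, rose with a T14 change of 1.98 (SE 0.387, edgeR adjusted p = 3.42e-05), from 9.01 ± 3.85 CPM at T0, and B3galnt2, which extends the O-mannose sugar, rose by 1.3 (SE 0.247, edgeR adjusted p = 2.14e-05). The T7 term called Dpm1 higher (1.7) and Pomgnt1, another O-mannose extending enzyme, lower (−0.53, SE 0.117, edgeR adjusted p = 0.000483).

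**Figure D5:**
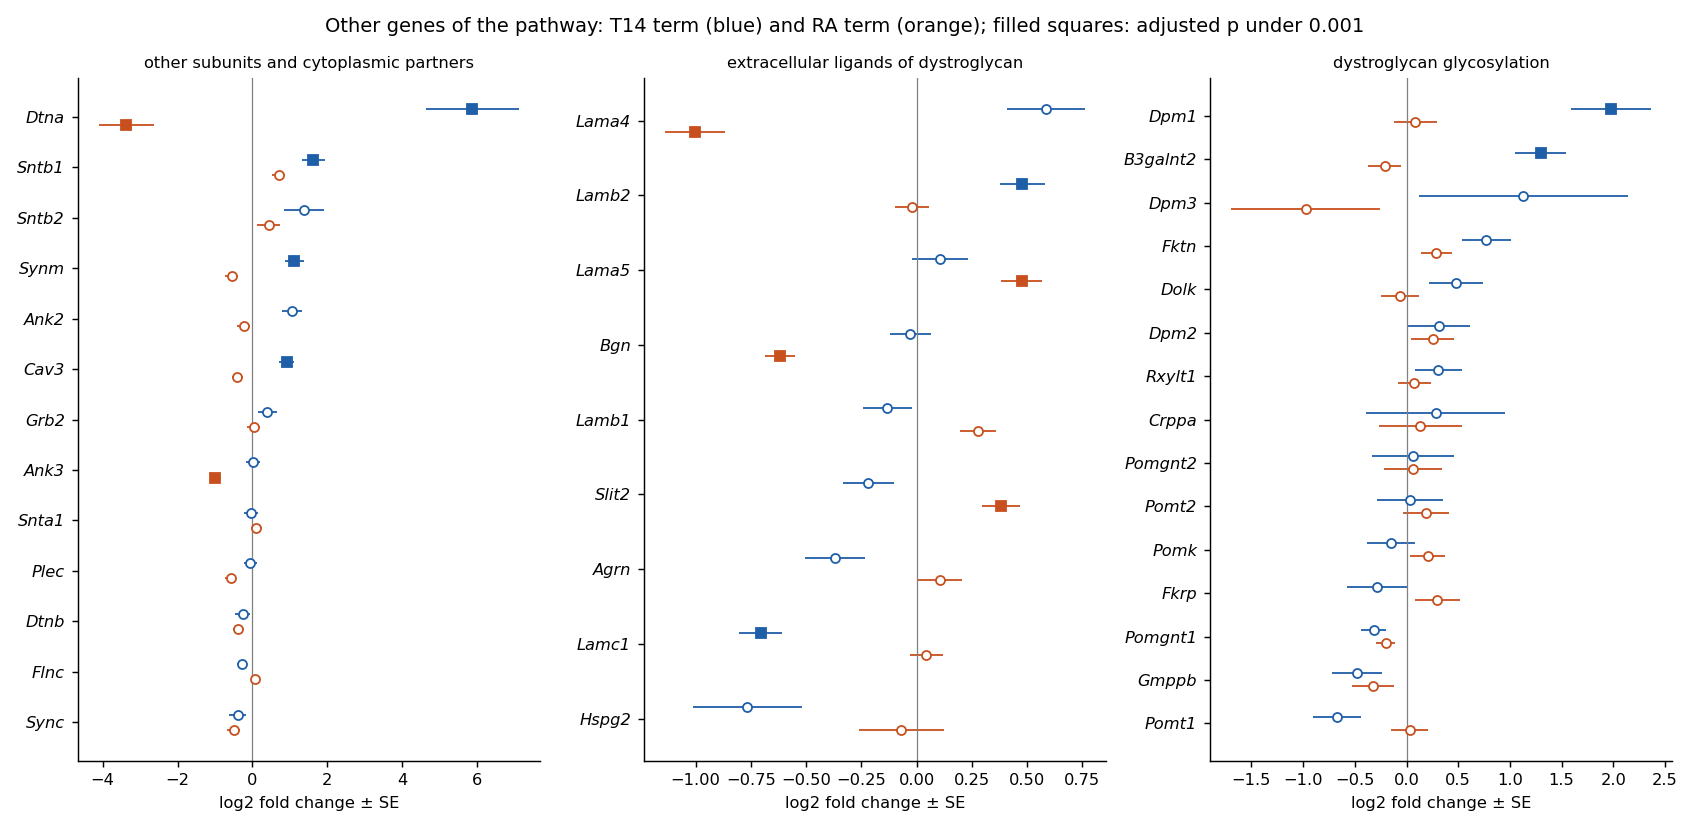
Points are log2 fold changes with SE bars for the T14 term (blue) and the RA term (orange) for genes of the 3 further gene lists, without those not reported here, and filled squares passed an adjusted p of 0.001. In the list of partners, the T14 change of Sntb1 and the RA change of Ank3 are among those that passed, and the squares of Dtna are no support because T14-RA alone brought it into the table.

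The genes with the most similar pattern were found by the root mean square difference of log2 CPM over the 15 libraries, each gene centred on its mean, among 8379 genes with a mean of at least 10 counts. For Utrn, with an SD of 0.41 on this scale, they were Vcan (0.146), Hectd4 (0.153) and Virma (0.156). For Dmd, with an SD of 0.416, they were Nr1d2 (0.193), Cnp (0.194) and Fam53b (0.206). For Dag1, with an SD of 0.336, they were Wars1 (0.132), Abcf1 (0.133) and Pcyox1 (0.135). The genes share the same libraries, and the measure says nothing of shared control.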

How the data were processed

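RNA-Seq was performed on 15 H9c2 cultures, 3 in each of 5 groups, which were assigned from the sample titles. Reads were trimmed and aligned by the authors on the Galaxy platform, using HISAT2 for mapping and featureCounts for gene counts. The submitters' processing notes name the build Rnor_6.0. Tool versions, and whether counting used strand, are not given in the sources used here. The authors deposited raw counts, without normalization, for genes over a minimum sum (smallest sum found 21), with gene lengths and cytogenetic bands, which were taken as deposited.

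Counts were analysed with edgeR 4.0.16 in R 4.3.3 (TMM scaling, robust quasi-likelihood F test, Benjamini-Hochberg over all 11574 genes). The additive model follows the formula of the study, which used limma, and its threshold of 0.001. A model of 5 group means gave RA at each day and their difference, called at 0.05. SE is the log2 fold change divided by the square root of F, and 95% intervals are normal intervals from it. Alternatives were RLE factors, library size only, filterByExpr, a replicate block, limma-voom and limma 3.58.1 on quantile-normalized log2 counts, DESeq2 1.42.0, a threshold of 0.05 and each library left out. The fits were tested on simulated data. Floors cover counting error only, and replicates are cultures whose p-values measure the spread between these cultures.

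The members and gene lists were chosen with earlier results of these data known. All 8 members were named, with up to 3 called genes of largest absolute change per further list and term, and the 3 most similar genes of each member called by the T7, T14 or RA term with at least 10 counts on average. Some genes of the lists are counted but not reported here by name. Other genes named (Hspg2, Lama1, Lama2 and the markers) were chosen after their values were seen. Within replicate pairs the smallest chi-square per gene was 1.07, and all libraries were kept.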

Additional observations from a re-analysis of the deposited data

How the results depend on the processing

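Apart from leaving out libraries, 352 of the members' fold changes kept direction and call under the alternatives, 7 lost and 5 gained a call, and 6 changed sign. With limma on quantile-normalized log2(count + 1) 0 members were called for the T14 term, the RA term, RA at day 7 and RA at day 14. The cause was not tested. In that order, 4, 5, 2 and 3 members had an unadjusted p under 0.05 there. Sspn is among them for the T14 term, the RA term and RA at day 14, where it cannot count. At an adjusted p under 0.05 the T7 term called 2, the RA term 3 and RA at day 14 called 2. Of all 11574 genes these called 2679, 1701 and 1291. Sspn is among the members called here for the RA term and for RA at day 14, where it cannot count as support. RLE factors, library size only, limma-voom and DESeq2 kept all counts of members called, while filterByExpr tested 9176 genes and dropped Sspn, so that the T14 term called 2. The changes of sign were in small, uncalled values. With library size only, Dag1 at T7 was 0.066, Sgcb at T14 0.0046 and Sgcb for RA at day 7 −0.0145, and the T0 level of Sgca was 88.6 CPM. This scaling moved the median of all genes to 0.13 at T7 and 0.15 at T14. With quantile normalization, Dag1 was 0.11 at T7 and 0.024 at T14, and Utrn −0.0098 for RA at day 7. With each library left out in turn, the members called were 1 to 2 for RA at day 7, 0 to 1 for RA at day 14 and 0 to 1 for the difference between days. Values that changed sign ranged from −0.094 to 0.011 for Dag1 at T7, −0.074 to 0.12 for Sgca and −0.24 to 0.077 for Sgcb at T14, and −0.043 to 0.30 for the RA term of Sgcd. For RA at day 7 they were −0.031 to 0.12 for Utrn, −0.13 to 0.24 for Sgcb and −0.32 to 0.54 for Sspn, for RA at day 14 −0.11 to 0.16 for Sgca, and for the difference between days −0.21 to 0.12 for Sgce. Whether the replicate numbers pair the cultures cannot be settled here. Deviations of same-numbered libraries correlated at 0.018 on average and those of differently numbered libraries at −0.009. Of 15 libraries, 6 correlated best with their own number. With a replicate block the members called stayed at 0, 3, 1, 2, 1 and 0 for the T7, T14 and RA terms, RA at day 7, RA at day 14 and the difference. Over all genes the block called 1083 for T7, 2088 for T14 and 797 for the RA term, against 1010, 2004 and 740 without it. Few counts limit Sspn and Sgcd.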

Other observations

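The 8 members were also summed as levels per length, not by reads. The sum averaged 276 ± 15.1 CPM per kb (SD, n = 3) in T0 cells, 253 ± 15.2 and 265 ± 25.9 on days 7 and 14 without RA, and 375 ± 3.74 and 332 ± 30.6 with RA. Dag1 made up 46.2% ± 1.14 of this sum at T0, 44.7% ± 1.81 in T14-RA and 53.1% ± 1.65 in T7+RA. Utrn made up 9.94% ± 0.698 at T0, 6.44% ± 0.285 in T14-RA and 4.06% ± 1.1 in T14+RA. The share of Dmd was 1.01% ± 0.116 at T0 and 2.24% ± 0.199 in T14-RA, but 0.9% ± 0.17 in T7+RA and 1.31% ± 0.123 in T14+RA. These shares depend on the deposited lengths and on the levels of the other members, and were not tested.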
